A study of Drosophila melanogaster with 51 samples.

Results

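The genes described here are 8 members of epidermal growth factor receptor (EGFR) signalling, namely vn, rho, S, Egfr, pnt, aop, aos and sty, out of 13946 protein-coding genes in a RefSeq gene table of Drosophila melanogaster. They were chosen by name, with earlier results of these data known, and described by the HP1 and H3K9me3 peaks listed in the annotated gene body or within 10 kb of either gene end. All 8 names matched 1 gene each. Of 1435 intervals in the HP1 list, 6 lay in or within 10 kb of these genes, and of 2245 intervals in the H3K9me3 list, 1 did.

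The study used CUT&RUN, where nuclease tethered to an antibody cuts free the bound chromatin for sequencing, in wing imaginal discs of wandering female third-instar larvae kept at 25 °C, with at least 20 discs per replicate. It comprises 51 libraries in 18 groups, of which 16 libraries used anti-HP1a, 15 anti-H3K9me3, 14 anti-GFP and 6 anti-H3K27me3. The values used here are the authors' peak lists of the whole series, so there is no value per library, no spread between replicates and no comparison of genotypes, and the depth is unknown. The lists hold no expression, so the tissue was not checked against marker genes. By its interval names, the HP1 list comes from a merged HP1 profile called ywdf, a name that the labels used here do not explain. By the same kind of name, the H3K9me3 list comes from HWT for 2047 intervals and from ywdf for 198, and the names fit no single library title. HWT larvae are bred to lack the endogenous histone gene cluster (ΔHisC), to carry a transgenic cluster with wild-type H3.2 and to be recognised by the EYFP that twi-Gal4 drives. A further list of 500 background regions is from anti-GFP CUT&RUN on discs called yw in the interval names and library titles but GFP-HP1a/+ in the genotype label. The 2 libraries so titled carry the label pel. Other anti-GFP libraries are labelled sup or pel, and the anti-HP1a and anti-H3K9me3 libraries carry neither label.

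HP1a is a chromatin protein that binds methylated lysine 9 of histone H3 (H3K9me3) through its chromodomain and is best known from the heterochromatin around centromeres and on chromosome 4. EGFR signalling is a receptor tyrosine kinase pathway that acts through Ras and a MAP kinase cascade and, in the wing disc, is known for its part in vein formation, growth and notum identity. Secreted ligands activate the receptor, a pair of ETS-domain transcription factors carries the response in opposite directions, and several target genes encode inhibitors that feed back on the pathway.

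HP1 intervals lay inside the bodies of 3 of the 8 genes, S, Egfr and aop, and within 10 kb of aos and sty. The genes vn, rho and pnt had none in either place. Over all protein-coding genes, 3.71% held an HP1 interval in the body and 12.1% in the body or within 10 kb. For H3K9me3, Egfr was the 1 gene of the 8 with an interval in the body or within 10 kb, against 1.26% of all protein-coding genes for the body and 2.59% for the body or 10 kb. Because the genes were chosen with these lists in view, nothing is read from the difference between their shares and those of all genes. In bases, HP1 covered 2548 of the 218417 bp of the 8 bodies (1.17%), and H3K9me3 covered 513 bp, all of it in Egfr.

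**Figure D1:**
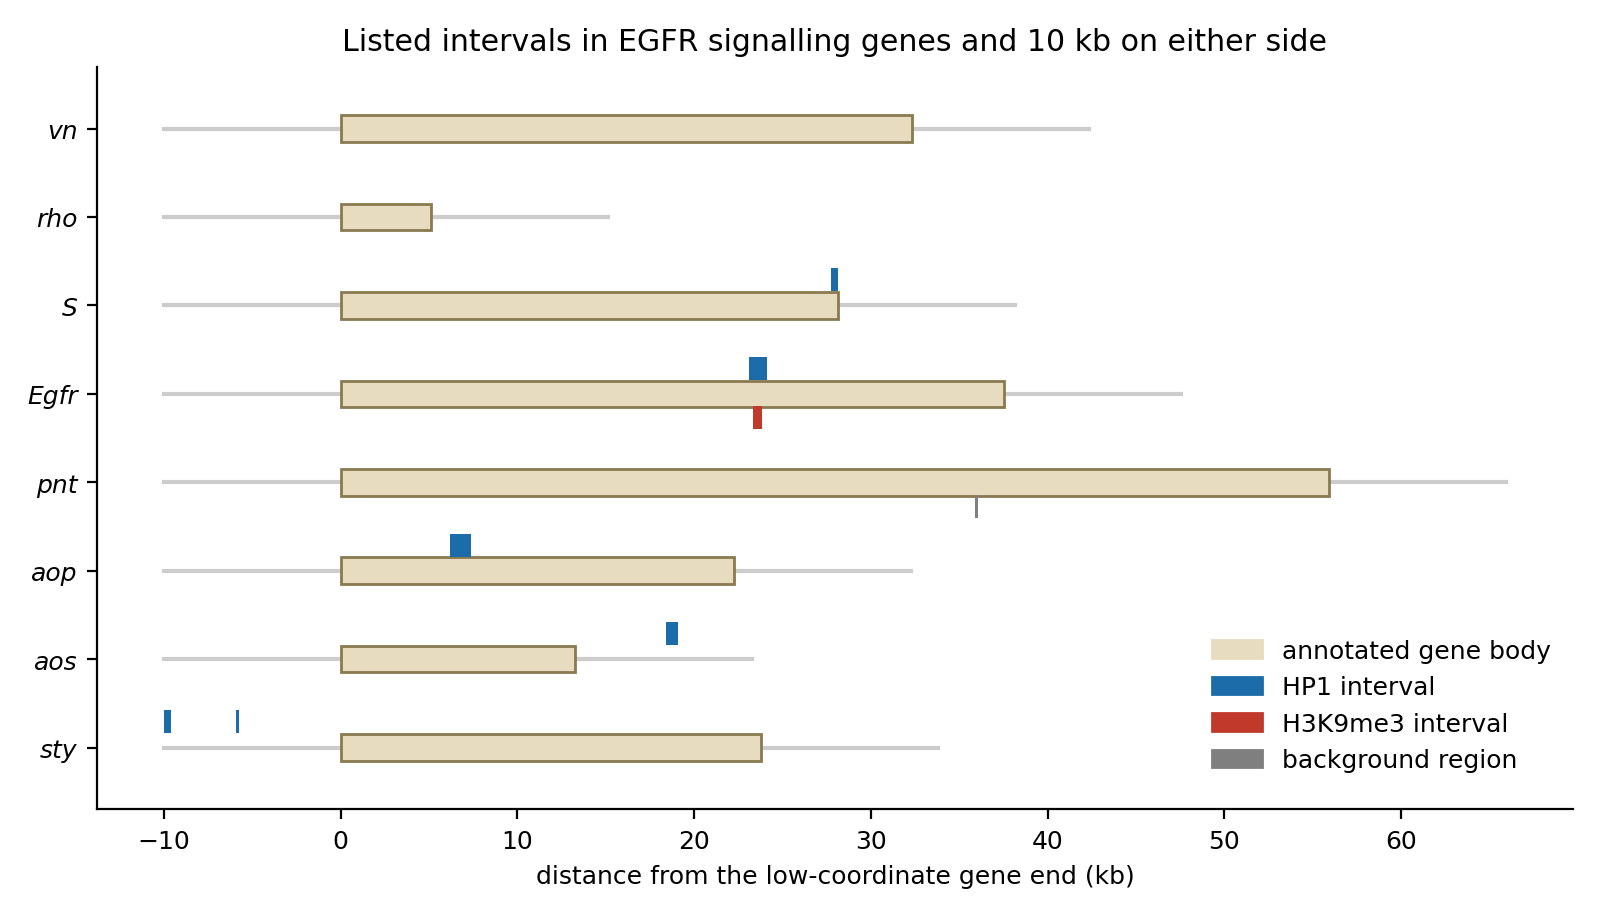
The 8 EGFR signalling genes drawn from their low-coordinate end at 0 kb, with the annotated body as a bar, 10 kb on either side as a line, and listed HP1 intervals (blue, above), H3K9me3 intervals (red, below) and background regions (grey, below) to scale. HP1 intervals lie inside S, Egfr and aop and beside aos and sty, and the single H3K9me3 interval lies under the HP1 interval of Egfr.

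All 8 genes lie in the chromosome arms, far from the pericentric parts. The nearest to such a part was aos, at 6508 kb, and the farthest rho, at 21523 kb. Gene lengths ran between 5.13 kb for rho and 55.9 kb for pnt, with a median of 25.96 kb against 2.16 kb over all protein-coding genes. Strand was not used here, so positions are given from the low- and high-coordinate ends of a gene on dm6, and which end is the promoter is not stated.

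Among the genes of the ligand step, HP1 was listed in S alone. The gene vn, at 3L 5813338 to 5845664, encodes a neuregulin-like secreted ligand, and its nearest HP1 interval lay 42.3 kb away, inside scny. The gene rho, at 3L 1463811 to 1468944, encodes Rhomboid, the intramembrane protease that cleaves ligand precursors. Its nearest HP1 interval was 113 kb away, inside Ptp61F, a phosphatase gene whose long annotated body also overlaps rho. Both genes were also far from H3K9me3, with the nearest interval 5185 kb from vn and 836 kb from rho.

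The gene S, at 2L 1049674 to 1077815, encodes Star, the transmembrane protein that carries ligand precursors to the compartment where Rhomboid cuts them. Its HP1 interval spanned 360 bp at 2L 1077436 to 1077795 and covered 1.28% of the body. It lay at the very edge of the gene, ending 20 bp inside the high-coordinate end. Only 152 bp separated the interval from the start of the neighbouring gene ast, so that at this spacing the interval cannot be assigned to S rather than to the region between the genes. As given by the authors' caller, its fold enrichment was 4.98 and its −log10 q-value 22.1, which placed it 375th of 612 arm HP1 intervals by fold. The nearest H3K9me3 interval was 9152 kb away.

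Egfr itself, the receptor gene at 2R 21522420 to 21559977, was the place where both lists met. Its HP1 interval spanned 1005 bp at 2R 21545526 to 21546530, with a fold enrichment of 7.56 and a −log10 q-value of 45.2. The H3K9me3 interval spanned 513 bp at 2R 21545748 to 21546260, with a fold enrichment of 6.24 and a −log10 q-value of 8.38. At a stricter limit of 10 on the −log10 q-value it would not be counted, and 0 of the 8 genes would hold H3K9me3. That limit also lies above the median over H3K9me3 intervals of the arms, 6.98, which the Egfr interval exceeded. All 513 bp of the H3K9me3 interval lay within the HP1 interval, of which they made up 51.0%, and the interval centres were 24 bp apart. The HP1 interval is named ywdf and the H3K9me3 interval HWT, so the overlap joins calls from different sources.

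Both Egfr intervals lay in the interior of the gene. The HP1 interval began 23106 bp from the low-coordinate end and ended 13447 bp from the high-coordinate end, its middle being at 62.9% of the body. Several small genes are annotated within the Egfr body, among them CG30283, CG30286, CG30287 and CG33226. Neither interval touched any of these, the closest being CG30283 at 4952 bp from the HP1 interval. HP1 covered 2.68% and H3K9me3 1.37% of the body.

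No other HP1 interval lay within 100 kb of that of Egfr, and the nearest was 156 kb away. The same held for the interval near aos, with the nearest 273 kb away. Around the Egfr interval, H3K9me3 had 2 further intervals within 100 kb, both in CG33225 and 30.4 and 31.0 kb beyond the Egfr body. The Egfr interval, with a fold enrichment of 6.24, exceeded these, with 3.19 and 4.68, and neither of them touched an HP1 interval.

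**Figure D2:**
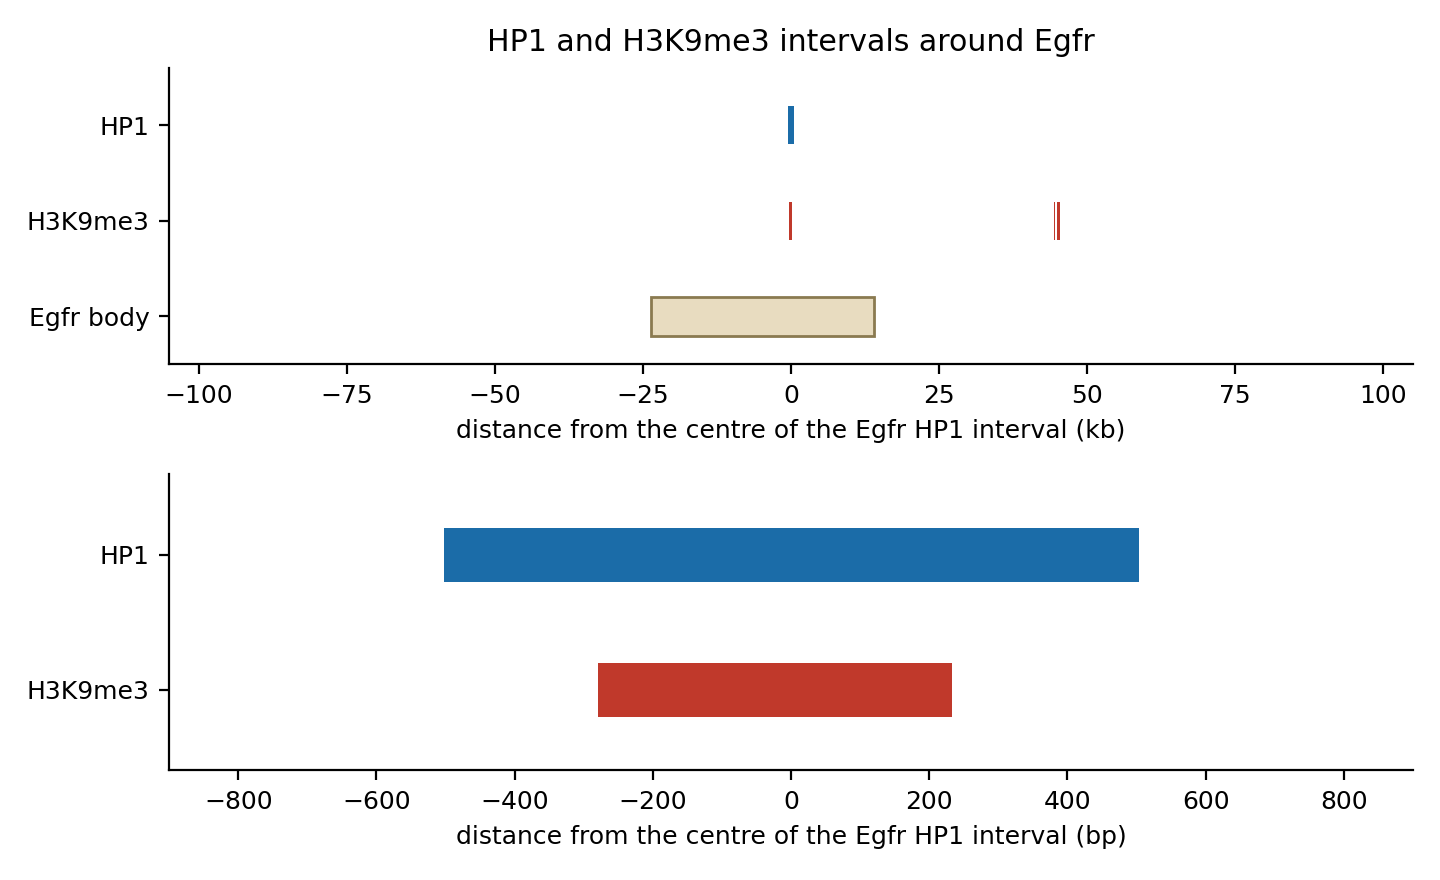
HP1 and H3K9me3 intervals around Egfr, as distance from the centre of the Egfr HP1 interval, in kb over 100 kb on either side with the annotated body (top) and in bp over the interval itself (bottom). The 513 bp H3K9me3 interval lies wholly within the 1005 bp HP1 interval, and the other H3K9me3 intervals, 44.1 and 44.7 kb from that of Egfr, have no HP1 interval beside them.

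Genes with both marks were uncommon away from the pericentric parts. In the arms 25 of 13631 protein-coding genes (0.183%) held HP1 and H3K9me3 intervals in the body, and Egfr was 1 of 16 of them that lay over 1 Mb from a pericentric part. Of 539 HP1 intervals over 1 Mb out, 22 (4.08%) touched H3K9me3, and among these 22 the Egfr interval was 11th by fold enrichment and 15th by width. The other way round, 28 of 69 H3K9me3 intervals over 1 Mb out touched HP1, and 22 of the 69, that of Egfr included, lay wholly inside an HP1 interval.

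The ETS-domain genes differed in what was listed. The gene aop, at 2L 2156484 to 2178754, encodes the repressor Yan, and it held the widest HP1 interval of the 8 genes, 1183 bp at 2L 2162645 to 2163827. The interval covered 5.31% of the body, began 6161 bp from the low-coordinate end and ended 14927 bp from the high-coordinate end. Its fold enrichment was 7.85 and its −log10 q-value 46.1, close to the values at Egfr. Unlike the Egfr interval it had no listed H3K9me3 interval under it, the nearest being 8052 kb from the gene. The same held for most HP1 intervals of the arms, of which 42 of 612 touched H3K9me3. The small gene CG15382 overlaps the low-coordinate end of aop and lay 5854 bp from the interval.

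The gene pnt, at 3R 23290231 to 23346167, encodes the activator Pointed and is the longest of the 8. Neither HP1 nor H3K9me3 was listed within it, and of arm genes of 40 to 60 kb 13.1% held HP1 in the body. The nearest HP1 interval was 148 kb away and the nearest H3K9me3 interval 1681 kb away. The pnt body did hold a region of the background list, 194 bp at 3R 23326122 to 23326315, with a fold enrichment of 2.53 against a median of 4.45 over that list. Background regions fell in the bodies of 0.739% of all protein-coding genes. None of the 6 HP1 intervals and not the H3K9me3 interval of Egfr touched a background region. Such contact was rare in general, at 15 of the 612 HP1 intervals of the arms.

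Of the 262 other protein-coding arm genes that, like aop, held 1 HP1 interval and no H3K9me3 in the body, those closest to it in the covered share of the body were Cdk12, Socs16D and ex. HP1 covered 5.31% of the aop body, against 5.19% for Cdk12, 5.44% for Socs16D and 5.11% for ex, a gene of the Hippo pathway. In bases aop had more, 1183 bp, against 331 bp in Cdk12, 370 bp in Socs16D and 893 bp in ex. The likeness is in this share alone.

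The inhibitor genes among the 8, aos and sty, had HP1 within 10 kb of the body but not in it. With a reach of 5 kb neither had any. The 6 other inhibitor genes of the pathway had none in the body or within 10 kb. Over all protein-coding genes that share was 12.1%, so no difference between the inhibitor genes is read from these small counts. The gene aos, at 3L 16470386 to 16483650, encodes Argos, a secreted protein that binds the ligand Spitz. An HP1 interval of 626 bp at 3L 16488819 to 16489444, with a fold enrichment of 8.13 and a −log10 q-value of 48.9, began 5169 bp beyond its high-coordinate end. This interval lies in the body of CG33158, a protein-coding gene of 76964 bp in which the whole of aos is nested, and so it cannot be assigned to aos by position. It ended 7116 bp from the high-coordinate end of CG33158. No other HP1 interval lay within 100 kb of it.

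The gene sty, at 3L 3401153 to 3424935, encodes Sprouty, an intracellular inhibitor of receptor tyrosine kinase signalling. It had 2 HP1 intervals on its low-coordinate side, from separate calls and outside any annotated gene. The nearer, of 194 bp at 3L 3395226 to 3395419, ended 5734 bp from the gene and had the highest fold enrichment of the 6, 8.81, with a −log10 q-value of 59.1. The farther, of 409 bp at 3L 3391163 to 3391571, ended 9582 bp from the gene and had the lowest, 2.77, with a −log10 q-value of 5.45, where the smallest value in the HP1 list is 5.02. Their recorded summit offsets, 1498 bp for the nearer and 1730 bp for the farther, exceed the widths, so each interval is only part of its call. The distances to sty are those of the listed intervals. A non-coding gene, lncRNA:CR45737, lies between these intervals, 618 bp from the nearer and 2516 bp from the farther. No H3K9me3 interval lay nearer than 1204 kb to aos or 2773 kb to sty.

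The farther sty interval lay at the edge of the 10 kb reach, with its near end 9582 bp from the gene and its far end just inside the limit. The closest interval outside the reach of the 8 genes was an HP1 interval 17.7 kb beyond the high-coordinate end of aop.

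Set among the 612 HP1 intervals of the arms, 5 of the 6 in or near EGFR signalling genes were wider than the arm median, that of S by less than 1 bp, and 4 were more enriched. Their median fold enrichment was 7.71, against 6.07 over the arms, where the middle 50% lay between 4.15 and 8.58 and the highest value was 31.7. Those of Egfr, aop and aos and the nearer interval of sty lay above the arm median of fold enrichment, while that of S and the farther one of sty lay below it. Their median width was 517.5 bp against 359.5 bp, and the intervals of aop and Egfr were wider than 94.4% and 92.3% of arm HP1 intervals. As the genes were chosen with these lists in view, nothing is read from these differences in fold enrichment and width. Each of the 6 carries a summit offset larger than its own width, as do 73.5% of HP1 intervals in the list. The listed interval is therefore not the whole of the call, and fold enrichment and q-value describe the call.

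**Figure D3:**
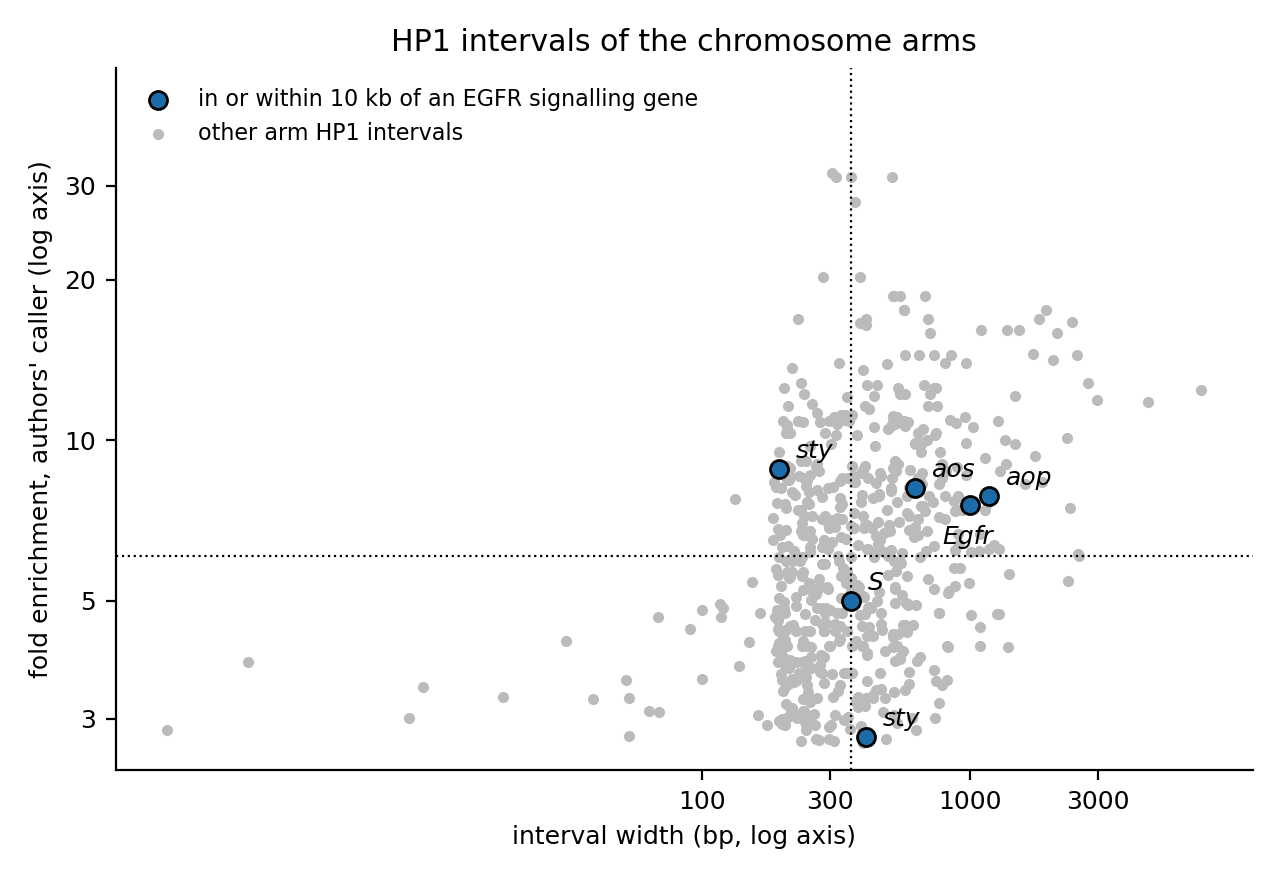
Width (bp, log axis) and fold enrichment given by the authors' caller (log axis) of the HP1 intervals in or within 10 kb of EGFR signalling genes (blue, named by gene) and of the other arm HP1 intervals (grey), with dotted lines at the medians over all 612. The intervals of Egfr, aop and aos lie above both medians, and the farther of the sty intervals lies near the lower limit of fold enrichment.

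Longer genes more often held an HP1 interval in the body, and most of the 8 genes are long. Whether length accounts for the HP1 intervals of the 8 was not tested. In the arms, 81 of 10317 protein-coding genes under 5 kb (0.785%) held HP1 in the body, against 36 of 332 between 20 and 30 kb (10.8%) and 42 of 206 over 60 kb (20.4%). S, aop and sty fall between 20 and 30 kb, vn and Egfr between 30 and 40 kb, where the share was 9.95%, and pnt between 40 and 60 kb, where it was 13.1%. The shorter genes rho and aos fall in classes with shares of 4.68% and 6.93%. Over the 3008 arm genes within the length range of the 8, 6.95% held HP1 in the body and 15.7% in the body or within 10 kb. For H3K9me3 these shares were 0.598% and 1.43%.

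**Figure D4:**
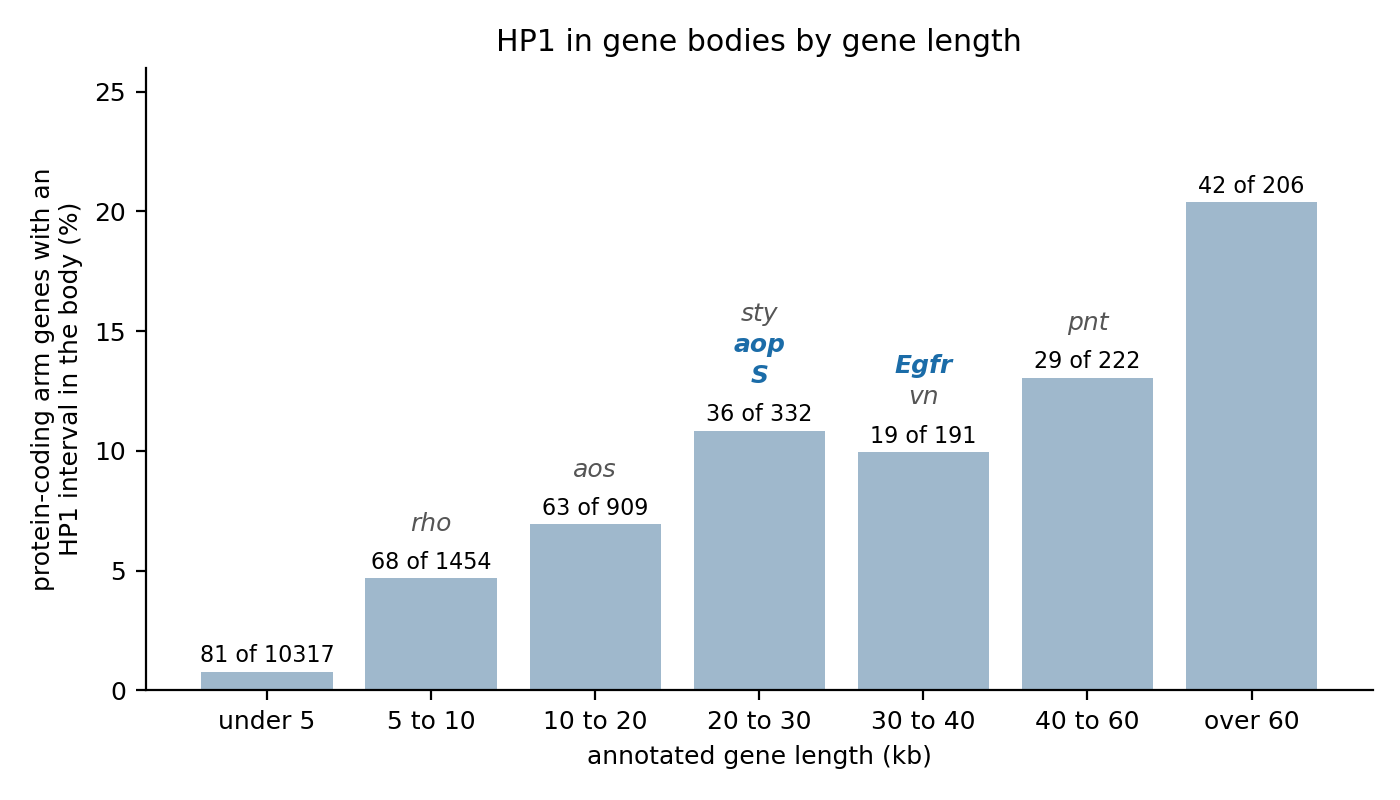
Percent of protein-coding arm genes with an HP1 interval in the body, by annotated gene length in kb, with the count over each bar. EGFR signalling genes are written above the bar of their length class, in bold blue where HP1 lies in the body (S, aop and Egfr) and in grey where it does not (rho, aos, sty, vn and pnt).

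The rest of the pathway was read from a list of 33 other genes, whose median length was 7.62 kb. HP1 lay in the body of 2 of them, Raf and rl, and within 10 kb of 2 more, ap and net, which left 29 of 33 with none. Over all protein-coding genes, 3.71% held HP1 in the body and 12.1% in the body or within 10 kb. The 4 of 33 with HP1 in either place are close to the latter share. H3K9me3 lay in rl and near ap, where the shares over all protein-coding genes were 1.26% and 2.59%. By role, 2 of 6 genes of the kinase cascade held HP1 in the body, and 2 of 9 vein and target genes had it within 10 kb. None of the 3 other ligand genes (spi, Krn and grk), the 3 rhomboid-type genes, the 4 adaptor genes, the 2 other transcription factor genes or the 6 other inhibitor genes had an HP1 interval in the body or within 10 kb. These classes are small and were not matched for gene length, so no difference between roles is read from the counts. The distance to the nearest HP1 interval had a median of 5.45 kb over the 8 genes, of 87.3 kb over the 33 and of 96.8 kb over all protein-coding arm genes. This distance partly restates the choice of the 8.

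Both genes of the kinase cascade with HP1 in the body were long. Raf, which encodes the MAP kinase kinase kinase, held 1 interval of 914 bp at X 2301842 to 2302755, with a fold enrichment of 6.39, 1.89% of its 48.4 kb body and no H3K9me3. The gene rl, which encodes the MAP kinase, lies in the pericentric part of 2R, unlike the other 32. HP1 covered 4.41% and H3K9me3 5.38% of its 54.5 kb body. A wide HP1 interval of 4507 bp, with a fold enrichment of 17.5, ran across its low-coordinate end and over lncRNA:CR41257, and overlapped an H3K9me3 interval of 5006 bp with a fold enrichment of 18.6. The rl body also held a background region of 315 bp with a fold enrichment of 15.0, which touched neither list.

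The remaining pathway genes with HP1 nearby encode transcription factors of wing patterning. The gene ap, which encodes the dorsal selector Apterous, lay 306 kb from the pericentric part of 2R. It had 3 HP1 intervals of 1 call on its low-coordinate side, the nearest 4226 bp away, with a fold enrichment of 9.86. Of these, 2 touched H3K9me3 intervals. For net, which encodes a repressor of vein formation, the HP1 interval of 1007 bp began 9068 bp away and crossed the 10 kb limit, over galectin and asRNA:CR44987, with a fold enrichment of 4.70.

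**Figure D5:**
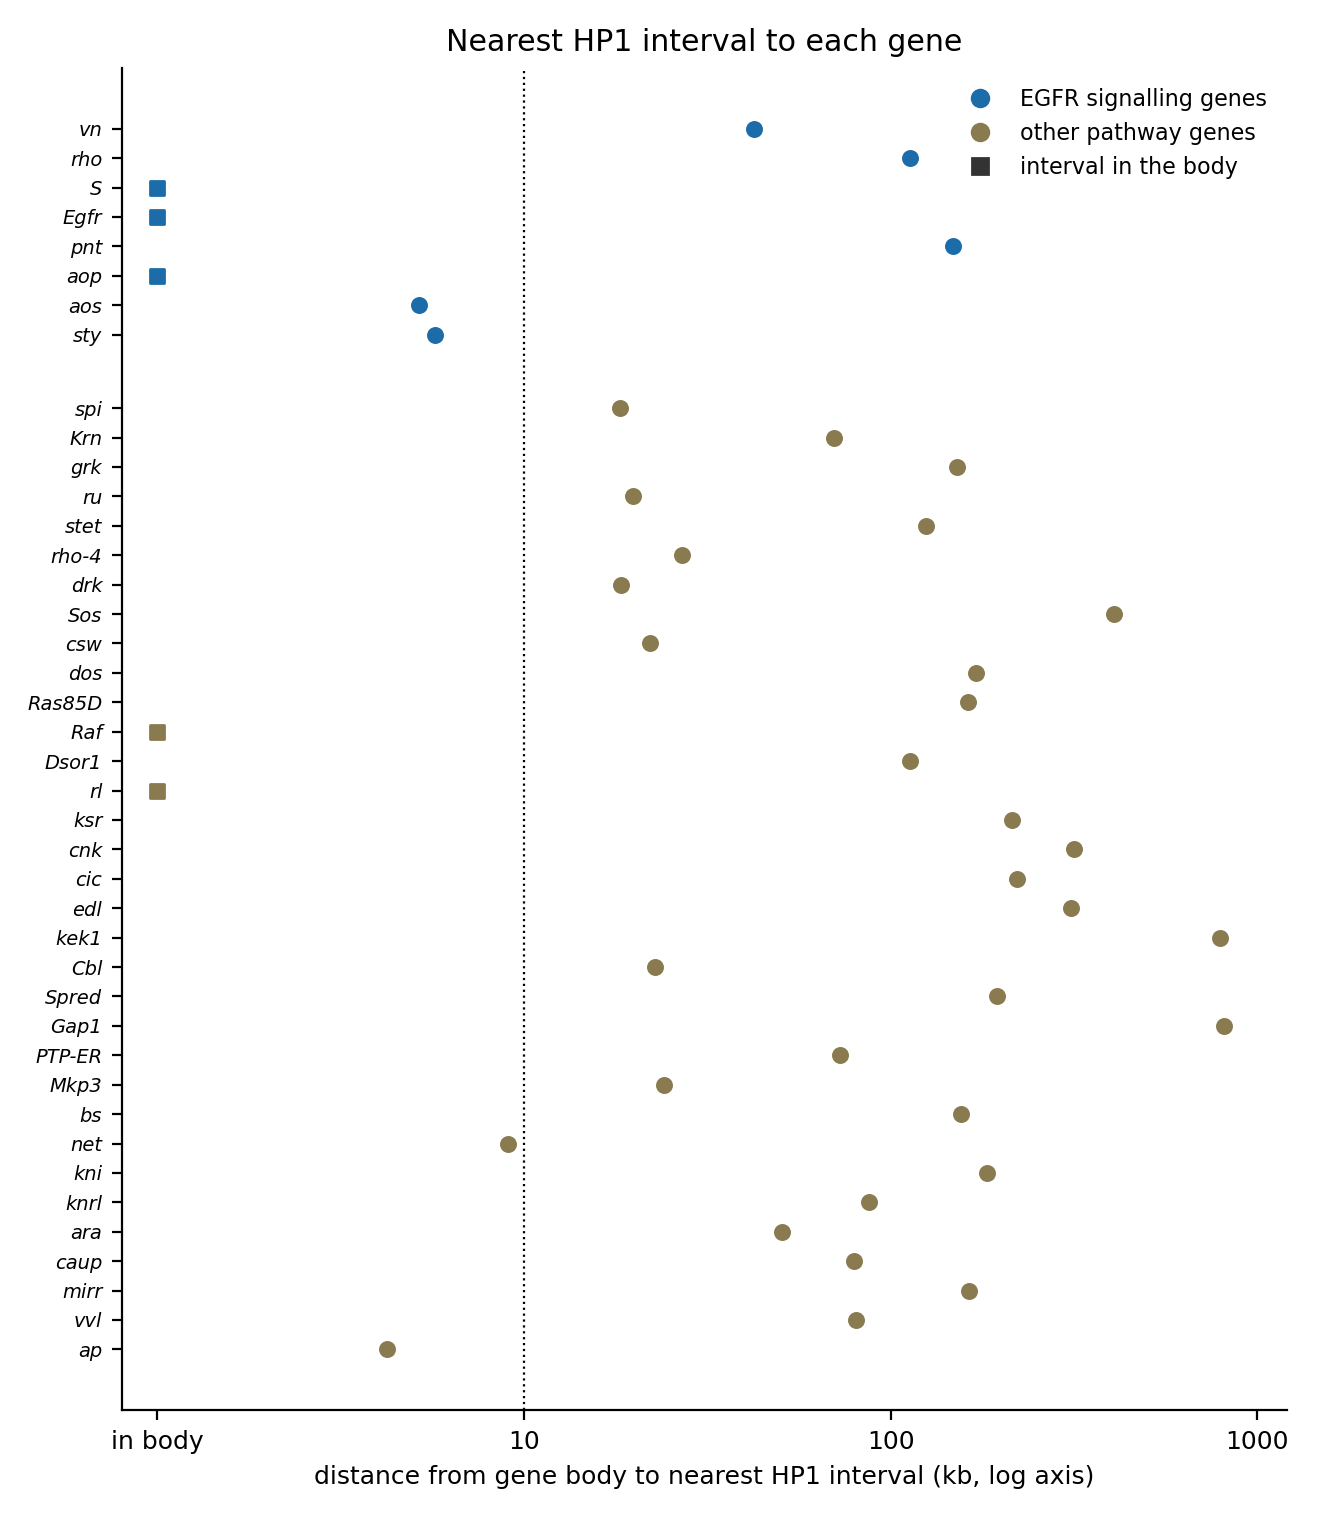
Distance from the gene body to the nearest HP1 interval (kb, log axis) for the 8 EGFR signalling genes (blue, top) and the 33 other pathway genes (brown), with squares at the left for genes holding an interval in the body and a dotted line at 10 kb. Most of the other pathway genes lie to the right of the line, with Raf, rl, net and ap to its left.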

How the data were processed

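The deposited files are peak lists made by the authors. Per the submitters' processing notes, the build was dm6 and the tools include MACS2 2.1.2, bedtools 2.26, SAMtools 1.10 and Bowtie2 2.3.4.1. Per the interval names, HP1 came from a merged profile. Each interval carries the authors' fold enrichment (a ratio), −log10 p-value, −log10 q-value and score. The deposited score equals 10 times the −log10 q-value, rounded down, and was not used. The values were used within a list only. Depth is unknown. The summit offset was used as deposited.

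Gene positions were those of RefSeq on the Release 6 assembly (dm6), 17807 genes on the main chromosomes. An interval counted for a gene if at least 1 bp lay in its body or within 10 kb. The sequence next to the centromere was called pericentric over 5.4 Mb on 2R, 5.1 Mb on 3L, 4.6 Mb on 3R, 1.5 Mb on 2L and 0.9 Mb on X, and chromosome ends were the largest coordinates in the lists or the gene table. The 8 genes, the 33 other pathway genes and the rules were chosen with earlier results of these data known. The 8 genes, pathway genes with an interval nearby, genes overlapping or next to an interval, and the 3 genes closest to aop were named. Genes next to an interval, and those at the nearest interval of a gene, were named after their values were seen. No test was run, as the lists hold no replicate values, and the planned motif search was not run, as no sequence was used here. Interval counting was tested on simulated data. Python 3.11.15 and pandas 2.3.3 were used.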

Additional observations from a re-analysis of the deposited data

How the results depend on the processing

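No paired analysis was possible because single replicates have no values in these lists, and no replicate could be left out. Of 57 alternative values, 49 stayed within 1.5 times the value reported. With a reach of 5 kb in place of 10 kb, 3 of the 8 genes had HP1 in the body or nearby, with 3 intervals, in place of 5 genes and 6 intervals, since the intervals beside aos and sty lie farther out. With a reach of 20 kb, 7 of the 33 other pathway genes had HP1 nearby, against 4. With a −log10 q-value of at least 10, the H3K9me3 interval of Egfr dropped out, leaving 0 of the 8 genes with H3K9me3 in the body and 0 in the body or within 10 kb, and 1 other pathway gene in place of 2. The share of genes with HP1 in the body, 3.71% over all protein-coding genes, was 7.92% over arm genes at least as long as rho and 6.95% over arm genes in the length range of the 8. Without depth or replicates, a gene with no listed interval cannot be called free of HP1 or H3K9me3.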

Other observations

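Beyond 10 kb, the next HP1 interval lay in another gene for 6 of the 8 EGFR signalling genes and in no annotated gene for S, at 42.1 kb with a fold enrichment of 3.93, and for pnt, at 148 kb with a fold enrichment of 3.29. The nearest to Egfr after its own was an interval of 2507 bp over the HMG-box genes HmgZ and HmgD, 143 kb beyond the gene, with a fold enrichment of 14.4. The nearest to aop after its own lay over COX7AL2, with a fold enrichment of 9.04, and 5 intervals from 3 calls lay in aop or within 100 kb of it. For sty the next interval was 97.4 kb away in ZnT63C and only 52 bp wide. For aos it was 254 kb away in CG13073, with a fold enrichment of 4.80.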
